A study of Mus musculus with 36 samples.

Results

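The H3K9 methylation and KAP1 silencing machinery was followed here as 10 genes taken by name from a table of 56748 genes: the histone H3 lysine 9 (H3K9) methyltransferase genes Suv39h1, Suv39h2, Setdb1, Setdb2, Ehmt1 and Ehmt2, the KAP1 gene Trim28, and the cofactor genes Atf7ip, Morc3 and Mphosph8. RNA-seq was made from mouse CD4+ T cells of 2 mutant lines, each with sex-matched wild-type (WT) and knock-out (KO) littermates of 6 to 12 weeks. The paper states that male mice were used for the sequencing. Both lines were kept on a mixed genetic background that included C57BL/6. In the HP1a line Cbx5, which encodes HP1a, was deleted in the germ line with a CMV-cre transgene, and WT cells were Hp1a+/+. In the HP1g line a floxed Hp1g allele (the gene Cbx3) was deleted by Cd4-cre, therefore in T cells, and WT cells carried the homozygous floxed allele without Cre. Naive cells were splenic CD4+ T cells purified by negative selection. Tconv were TCR Vβ6+ donor CD4+ T cells sorted from the spleen 3 weeks after naive cells had been injected, with C57BL/6J and B6D2F1 bone marrow, into lethally irradiated B6 hosts. Tconv with Treg came from hosts that also received expanded WT Thy1.1+ regulatory T cells (Treg). These 12 groups had 3 libraries each. The third library of Tconv with Treg from HP1g KO mice, set aside on quality grounds, was not used, and 35 libraries were compared.

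Methylated H3K9 is the docking mark of HP1 proteins, whose chromodomain binds it and which in turn recruit further methyltransferase to neighbouring nucleosomes. SUV39H1 and SUV39H2 write the mark in pericentric heterochromatin, EHMT2 (G9a) and EHMT1 (GLP) act as a heterodimer in euchromatin, and SETDB1 is brought by KAP1 to sequences bound by KRAB zinc finger proteins, among them endogenous retroviruses. In CD4+ T cells SUV39H1 is known for keeping the genes of other helper lineages silent, and G9a for a part in helper cell differentiation.

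Total counts ranged from 37029477 to 63042165 per library, and 3 counts, the limit that a count of 0 allows, corresponded to 0.0476 to 0.081 CPM, the count scaled to library size. The targeted genes went with the labels: Cbx5 was 10.9 ± 1.55 CPM in HP1a KO and 22.3 ± 3.42 in HP1a WT naive cells (SD, n = 3 each), Cbx3 was 71.4 ± 8.4 CPM in HP1g KO and 141 ± 50.9 in HP1g WT naive cells, and both were lower in the KO in every condition. The summed level of 7 CD4 T cell markers was 5930 to 10000 CPM over all libraries, that of 8 B cell markers at most 63.8 CPM, that of 10 myeloid markers at most 602 CPM and that of 6 erythroid markers at most 6140 CPM, the highest being in grafted libraries. 3 libraries stood apart. The one left out had 72.9% of 12860 genes more than 2-fold away from the rest of its group, HP1a WT Tconv with Treg replicate 3 had 20%, HP1g WT naive replicate 2 had 10.9%, and the next library had 8.56%. Values printed for members that moved by over 1.5 times or changed side of the threshold without 1 of the latter pair are given both ways, singly or as ranges. Labels and column names set naive libraries, grafted libraries and the 2 lines apart, so that preparation and condition or line cannot be told apart.

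All 10 genes were detected in every library, at levels that differed widely between genes. Per kilobase of exon (CPM divided by the union of exons), the mean level over the 12 groups was 21.6 ± 3.76 CPM per kb for Morc3, an ATPase that silences retroviral sequences, 15.5 ± 1.4 for Trim28 and 14.8 ± 2.53 for Ehmt2 (SD over groups, n = 12). A middle group followed with Atf7ip, whose product stabilises SETDB1 in the nucleus, at 7.85 ± 1.85, Suv39h1 at 7.65 ± 1.42, Setdb2 at 7.18 ± 1.19, Mphosph8, the chromodomain subunit of the HUSH complex, at 6.80 ± 1.63, and Ehmt1 at 6.55 ± 1.17. Setdb1 had 4.63 ± 0.674 and Suv39h2 0.626 ± 0.245 CPM per kb. Setdb1 lay 7.4-fold above Suv39h2 and below Ehmt1 in 35 of 35 libraries, and Morc3 was above Trim28 in 30. Trim28 and Ehmt2 did not differ beyond their spread, with Trim28 above Ehmt2 in 17 libraries, nor did any neighbours from Atf7ip down to Ehmt1, whose order held in 13 to 22 libraries. The order depends on the length used. With the longest transcript instead, 5 of the 10 genes kept their rank, and Atf7ip, at 20.3 CPM per kb, left the middle group for a place beside Ehmt2 (20.9) and Trim28 (19.6).

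Between the related genes the balance was uneven. Suv39h1 exceeded Suv39h2 in every library, with a median ratio of levels per kb of 18.9 in naive cells (11.5 to 37.7), 12.5 in Tconv (7.6 to 21) and 9.45 in Tconv with Treg (4.01 to 18.3). Setdb1 was below Setdb2 per kilobase of exon in every library, with median ratios of 0.774, 0.575 and 0.636 in the same order, but with lengths of the longest transcript the naive median turned to 1.07 (0.653 to 1.34, Setdb1 higher in 8 of 12 libraries) and the others were 0.792 and 0.875. Ehmt2 was above Ehmt1 by a median of 1.45 in naive cells (1.24 to 1.7), 2.78 in Tconv (2.42 to 3.05) and 2.86 in Tconv with Treg (2.43 to 3.52), so that naive and grafted cells did not overlap in this ratio. How often the ratios of other genes lie apart in this way was not counted. In the mean over lines and genotypes given below, 31.2% of all genes were higher in Tconv and 30.8% lower.

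**Figure D1:**
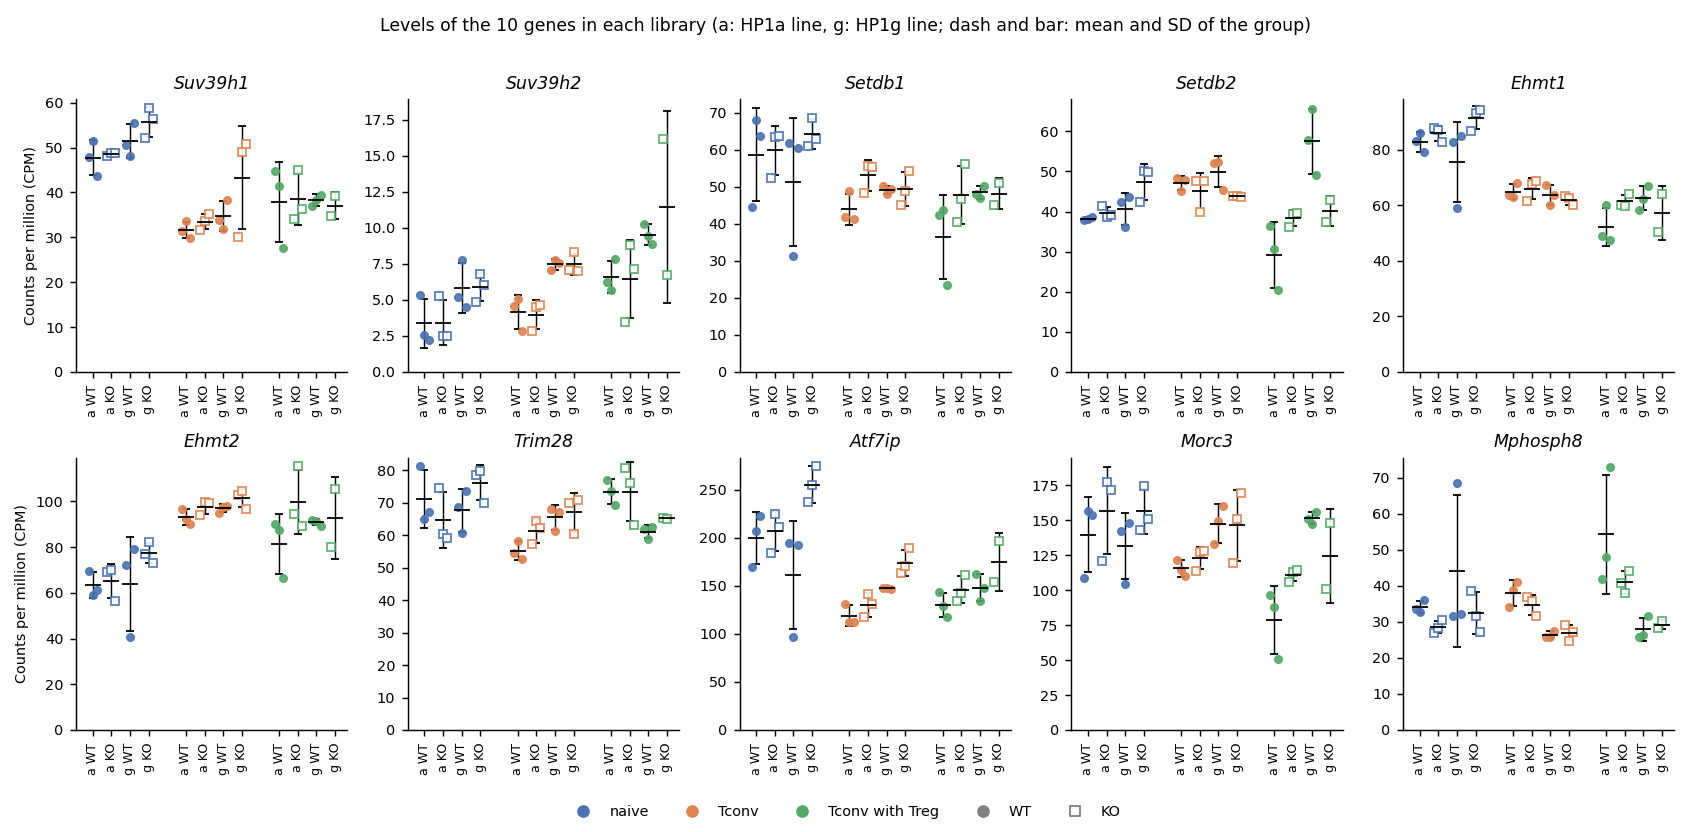
Level of each of the 10 genes in the 35 libraries (vertical axis, CPM, linear from 0 with its own range for each gene), with 1 point per library by condition (colour), line and genotype (filled circle WT, open square KO), and the mean and SD of each group. Ehmt2 lies at 90.04 to 104.5 CPM in the 12 Tconv libraries, above all 12 naive libraries (40.6 to 82.0), while Suv39h1 lies below every naive library in 10 of the 12. The share of all genes that lie apart in this way was not counted.

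The first comparison asked how the machinery differed between naive cells and Tconv recovered from the host. Suv39h1, Ehmt1 and Atf7ip were lower and Ehmt2 was higher in Tconv in each of the 4 pairs of line and genotype, each passing the test in 3 of them (edgeR quasi-likelihood test, adjusted p under 0.05), by about 1.3- to 1.7-fold. In HP1a WT cells 6 of the 10 genes passed, 2 higher and 4 lower, where 45.7% of all genes tested passed (24.3% higher and 21.4% lower). In HP1a KO cells 4 passed (1 higher, 3 lower) against 40.6% of all genes (22.9% and 17.8%), in HP1g WT cells 1 passed, lower, against 31.4% (18.3% and 13.2%), and in HP1g KO cells 4 passed (1 higher, 3 lower) against 41.1% (23.4% and 17.7%). The share of members that passed was no more than this background in 3 of the pairs, and in the remaining one, HP1a WT, 4 to 8 members passed with 1 library left out (4 without Tconv replicate 1 or 3, and 8 without naive replicate 1). No member moved past 2-fold in any pair, where 23.1%, 19.7%, 23.5% and 23.1% of all genes passed with such a change in HP1a WT, HP1a KO, HP1g WT and HP1g KO. Where members are said not to overlap between naive cells and Tconv, the share over all genes was not counted.

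Suv39h1 lies on X:7927403-7940999 of GRCm39 (minus strand). It had 47.9, 51.5 and 43.7 CPM in HP1a WT naive libraries and 31.4, 33.6 and 29.9 in HP1a WT Tconv, and the groups did not overlap. The log2 fold change was −0.59 (SE 0.108, edgeR adjusted p = 0.00249), and it was −0.52 in HP1a KO (SE 0.0801, adjusted p = 0.00196), from 48.1, 48.7 and 48.7 CPM to 31.7, 33.6 and 35.2. In HP1g WT cells it went from 50.6, 48.1 and 55.5 CPM to 34.0, 31.8 and 38.4 (−0.57, SE 0.152, adjusted p = 0.0241), a call that was lost in 4 of 6 fits without 1 library. HP1g KO Tconv were uneven, with 30.2, 49.1 and 50.7 CPM against 52.1, 58.7 and 56.4 in naive cells, and this pair did not pass (−0.34, SE 0.194, adjusted p = 0.199). Across the lines, 10 of 12 Tconv libraries lay below the lowest of the 12 naive libraries, and the exceptions were replicates 2 and 3 of HP1g KO.

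Suv39h2 (2:3455774-3476146, minus strand) encodes the related enzyme and was the least abundant member. It had 2.24 to 7.77 CPM in naive cells and 2.81 to 8.34 in Tconv. Its log2 fold change was 0.23 to 0.37 and passed in none of the 4 pairs, and the 95% intervals reached from −0.66 to 1.21. Without HP1g WT naive replicate 2 it was 0.63 in HP1g WT and passed (edgeR adjusted p = 0.0375). Of its exon bases, 50.3% are shared with Dclre1c, a DNA repair gene on the opposite strand, and the library kit was unstranded. Among HP1a naive libraries, replicate 1 of both genotypes had 5.35 and 5.25 CPM and the other 4 had 2.24 to 2.54.

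The G9a and GLP genes moved in opposite directions. Ehmt2 (17:35117256-35133048, plus strand) had 69.7, 58.9 and 61.2 CPM in HP1a WT naive cells and 96.8, 92.3 and 90.04 in Tconv (log2 fold change 0.56, SE 0.0968, edgeR adjusted p = 0.00193). It rose by 0.60 in HP1a KO (adjusted p = 0.00254) and by 0.41 in HP1g KO (adjusted p = 0.0059). In HP1g WT cells it went from 72.1, 40.6 and 79.1 to 94.9, 97.6 and 98.1 CPM, which did not pass (0.60, SE 0.241, adjusted p = 0.0954) unless naive replicate 2, at 40.6 CPM, was left out (0.37, adjusted p = 0.00905). Every Tconv library was above every naive library, and how many of all genes lay apart in this way was not counted.

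Ehmt1 (2:24679940-24809696, minus strand), in contrast, had 83.3, 86.2 and 79.2 CPM in HP1a WT naive cells and 63.7, 63.0 and 68.0 in Tconv, which did not overlap (−0.35, SE 0.0848, edgeR adjusted p = 0.0097). It fell by 0.37 on the log2 scale in HP1a KO (adjusted p = 0.00665) and by 0.54 in HP1g KO (adjusted p = 0.00154), where naive libraries had 86.8, 93.3 and 94.5 and Tconv 63.5, 62.7 and 60.1 CPM. In HP1g WT cells it was −0.25 (adjusted p = 0.325) and −0.39 without naive replicate 2 (adjusted p = 0.00932). Without that library 6 members passed in HP1g WT, among 40.3% of all genes: Suv39h1, Suv39h2, Setdb1, Ehmt1, Ehmt2 and Atf7ip. The ratio of Ehmt2 to Ehmt1 in CPM was 0.681 to 0.931 in the 12 naive libraries, 1.32 to 1.67 in the 12 Tconv libraries and 1.33 to 1.93 in the 11 libraries of Tconv with Treg. This ratio is free of the scaling between libraries, and HP1g WT naive replicate 2 lay inside the naive range.

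**Figure D2:**
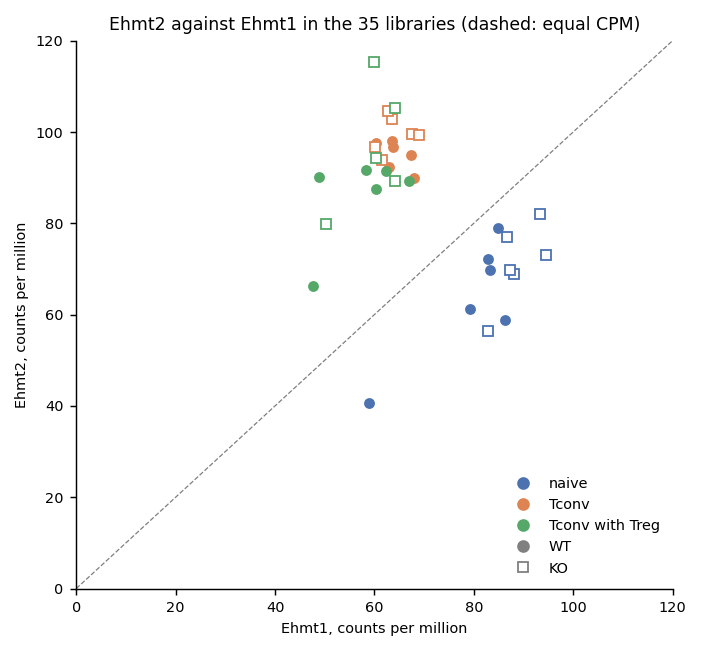
Ehmt2 against Ehmt1 (both in CPM) in each of the 35 libraries, with 1 point per library, coloured by condition, filled for WT and open for KO, and a dashed line at equal CPM. Naive libraries lie at an Ehmt2 to Ehmt1 ratio of 0.681 to 0.931 and the grafted libraries at 1.32 to 1.93, without overlap. How often other pairs of genes lie apart in this way was not counted.

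The start regions of the 4 genes that moved in 3 of 4 pairs are shown because 3 of them fell together and 1 rose. They are the bases before the annotated start of the canonical transcript in GRCm39 (GENCODE annotation), 5′ to 3′ on the strand of the gene, with capitals on matches of a CCAAT box, which reads ATTGG from the other strand. For Ehmt2, 228 of the 250 bases are printed. The 22 bases nearest the canonical start, which are untranslated bases of a longer transcript, are left out. Distances and CpG counts refer to that start and to all 250 bases. Capitals also mark the GC box GGGCGG.
Suv39h1, chrX:7941000-7941249, minus strand: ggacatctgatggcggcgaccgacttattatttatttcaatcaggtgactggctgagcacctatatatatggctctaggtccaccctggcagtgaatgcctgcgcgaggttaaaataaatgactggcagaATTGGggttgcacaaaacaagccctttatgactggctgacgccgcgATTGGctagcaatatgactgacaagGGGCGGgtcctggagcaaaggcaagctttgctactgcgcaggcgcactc
Ehmt1, chr2:24809697-24809946, minus strand: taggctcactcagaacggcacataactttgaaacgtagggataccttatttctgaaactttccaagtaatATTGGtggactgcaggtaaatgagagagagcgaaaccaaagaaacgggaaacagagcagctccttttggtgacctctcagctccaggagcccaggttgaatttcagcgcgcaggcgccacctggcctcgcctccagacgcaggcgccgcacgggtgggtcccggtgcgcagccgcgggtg
Atf7ip, chr6:136495535-136495784, plus strand: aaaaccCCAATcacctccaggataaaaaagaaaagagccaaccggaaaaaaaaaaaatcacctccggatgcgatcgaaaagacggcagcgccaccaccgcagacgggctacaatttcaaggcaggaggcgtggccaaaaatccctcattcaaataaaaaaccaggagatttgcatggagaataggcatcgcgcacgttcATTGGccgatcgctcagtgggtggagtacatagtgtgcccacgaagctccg
Ehmt2, chr17:35117028-35117255, plus strand: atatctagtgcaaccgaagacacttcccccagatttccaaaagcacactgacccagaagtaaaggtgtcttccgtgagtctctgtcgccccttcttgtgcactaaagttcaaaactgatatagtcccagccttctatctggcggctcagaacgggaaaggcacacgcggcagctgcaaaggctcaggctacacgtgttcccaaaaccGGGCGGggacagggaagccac
The letters CCAAT stood in the windows of the 3 genes that fell (2 matches in Suv39h1, 2 in Atf7ip and 1 in Ehmt1) and not in that of Ehmt2, but GGGCGG stood in the windows of both Suv39h1 (49 bases before its start) and Ehmt2 (43 bases before). Over all 10 genes, 6 windows of 250 bases held CCAAT, those of Setdb1, Morc3 and Mphosph8 included and that of Trim28 not, and 7 held GGGCGG on either strand, while 36.5% and 36.3% of 21757 promoters did. The letters of an E2F site (TTTCCCGC or TTTGGCGC), present in 1.62% of promoters, were in none of the 10 windows, and neither were the letters CCGGAAGT of an ETS site (2.64%) or the NRF1 motif (0.666%). The Suv39h1 and Ehmt2 windows held 11 CpG each and those of Ehmt1 and Atf7ip 16 each, where the median promoter held 8.

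Of the SETDB1 arm, Atf7ip (6:136483165-136587860, plus strand) moved most. HP1a WT naive libraries had 170, 207 and 223 CPM and Tconv 131, 112 and 112 (−0.75, SE 0.116, edgeR adjusted p = 0.00106), without overlap. It fell by 0.66 on the log2 scale in HP1a KO (SE 0.0995, adjusted p = 0.00184) and by 0.53 in HP1g KO (SE 0.110, adjusted p = 0.00502), where it went from 237, 255 and 275 to 163, 170 and 189 CPM. In HP1g WT cells naive libraries had 195, 96.6 and 193 CPM and Tconv 148, 148 and 146, so the fold change was −0.13 with the low naive replicate 2 (adjusted p = 0.737) and −0.38 without it (adjusted p = 0.00513).

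Setdb1 (3:95229399-95264541, minus strand), the methyltransferase that ATF7IP accompanies, had a log2 fold change below 0 in 4 of 4 pairs. In HP1g WT it was −0.06, and −0.31 without naive replicate 2 (edgeR adjusted p = 0.0178). It passed in HP1g KO, from 61.0, 68.7 and 62.7 CPM in naive cells to 45.1, 48.9 and 54.3 in Tconv (−0.35, SE 0.106, edgeR adjusted p = 0.0266), a call lost in 4 of 6 fits without 1 library. In HP1a WT it had 44.4, 67.9 and 63.6 CPM in naive cells and 41.7, 48.7 and 41.3 in Tconv (−0.41, adjusted p = 0.0623). Replicate 1 of HP1a naive cells was the low one in WT and in KO (52.2 against 63.5 and 63.6 CPM), and without it Setdb1 fell by 0.58 (adjusted p = 0.00169) and 0.26 on the log2 scale (adjusted p = 0.0358). Setdb2 (14:59637727-59678557, minus strand), a SETDB1-related protein, rose in HP1a WT, from 37.8, 38.2 and 38.6 CPM to 48.4, 45.1 and 47.7 (0.30, SE 0.0872, adjusted p = 0.0207), was 0.20 and 0.30 in HP1a KO and HP1g WT, and −0.09 in HP1g KO. Its call was lost in 4 of 6 fits without 1 library.

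Trim28 (7:12733041-12764976, plus strand), the KAP1 scaffold, fell in HP1a WT from 81.2, 64.9 and 67.2 CPM to 54.5, 58.3 and 52.8 (−0.36, SE 0.113, edgeR adjusted p = 0.0288), a call lost in 3 of 6 fits without 1 library, and had log2 fold changes of −0.05 to −0.17 in the other pairs, which did not pass. Its exons share 67.8% of their bases with the opposite-strand gene Chmp2a, an ESCRT subunit gene, and the library kit was unstranded, so the level of Trim28 is less certain than that of Suv39h1, Ehmt1, Ehmt2 or Atf7ip.

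Morc3 (16:93629009-93672979, plus strand) had 105 to 178 CPM in naive cells and 111 to 170 in Tconv and passed in no pair, with log2 fold changes of −0.34 to 0.16 (−0.34 to 0.03 without HP1g WT naive replicate 2). In HP1a cells naive replicate 1 was again low (109 CPM in WT, 121 in KO, against 154 to 178 in the others), and without it Morc3 fell by 0.42 in WT (edgeR adjusted p = 0.00204) and by 0.50 in KO (adjusted p = 0.00157) on the log2 scale. Mphosph8 (14:56905666-56935542, plus strand) had 33.5, 32.8 and 36.1 CPM in HP1a WT naive cells and 34.0, 38.9 and 41.0 in Tconv, and passed in no pair (−0.74 to 0.29). Its value of 68.5 CPM in HP1g WT naive replicate 2 stood against 31.7 and 32.1 in the other libraries of that group, and without it the log2 fold change in HP1g WT was −0.26 (edgeR adjusted p = 0.0746) in place of −0.74. The difference in this change between the WT cells of the lines was tested in a comparison added after values had been seen. No member passed in it, in edgeR (0.0117% of all genes) or in DESeq2 (1.01%). Mphosph8 alone reached an unadjusted p under 0.05 there (0.89, edgeR adjusted p = 0.223), as 19.6% of all genes did, and it was 0.41 without HP1g WT naive replicate 2 (adjusted p = 0.181).

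Over the mean of the 4 pairs, a comparison added after values had been seen, 7 of the 10 genes passed where 62% of all genes did (31.2% higher, 30.8% lower). Suv39h1 fell by 0.51 on the log2 scale (SE 0.0725, edgeR adjusted p = 2.64e-06), Atf7ip by 0.53 (SE 0.0889), Ehmt1 by 0.39 (SE 0.0535), Setdb1 by 0.26 (SE 0.0931) and Trim28 by 0.17 (SE 0.0571), while Ehmt2 rose by 0.53 (SE 0.0778) and Setdb2 by 0.17 (SE 0.0496). Suv39h2, Morc3 and Mphosph8 did not pass, at 0.30, −0.14 and −0.14, the last of which was −0.03 without HP1g WT naive replicate 2. The median of the 10 log2 fold changes was −0.157, and that of all genes tested was −0.021.

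**Figure D3:**
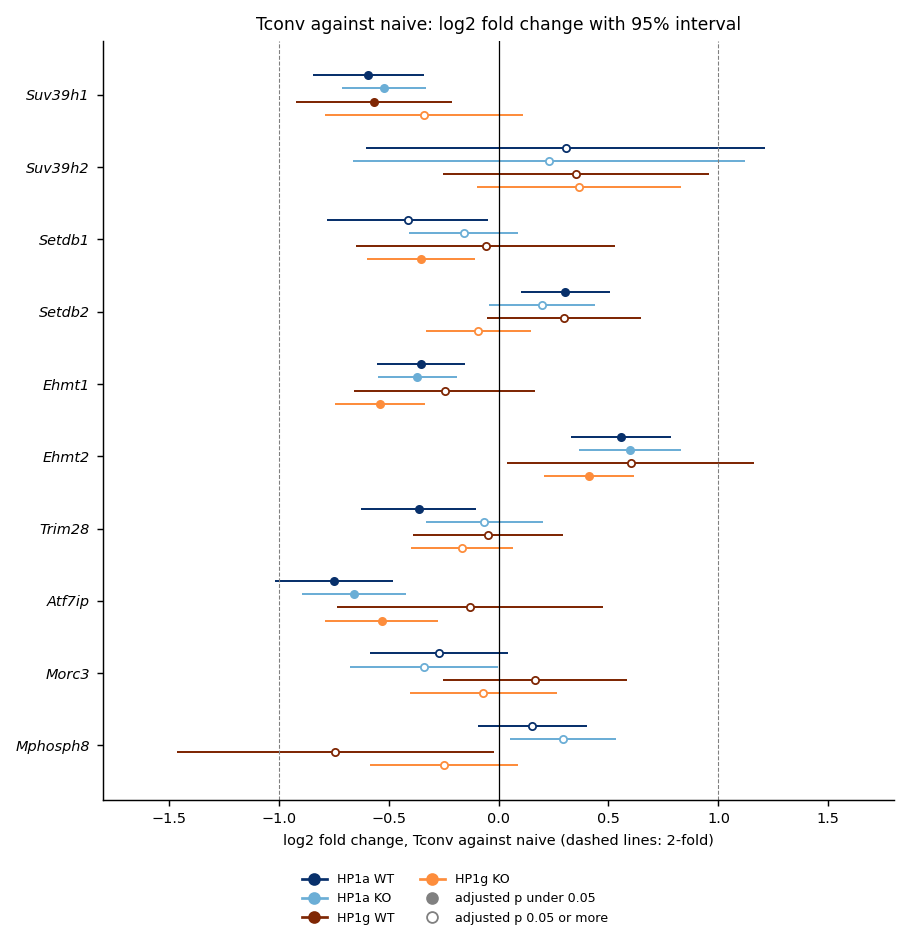
Log2 fold change of each gene in Tconv against naive cells, with 95% intervals from the edgeR fit, for the 4 pairs of line and genotype (colour). Filled points passed and dashed lines mark a 2-fold change, and Ehmt2 is above 0 in 4 of 4 pairs (0.41 to 0.60) and Suv39h1, Ehmt1, Atf7ip, Setdb1 and Trim28 are below 0 in 4 of 4.

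Other measures moved with this comparison. Of 10 cell cycle genes, 8 were higher in Tconv in each pair, with a summed level of 244 to 392 CPM in naive libraries and 537 to 2250 in Tconv. Myeloid markers (10 genes) summed to 5.52 to 13.7 CPM in naive and 5.93 to 458 in Tconv libraries, and erythroid markers (6 genes) to 9.92 to 178 and 1.8 to 4970. The part of the cell cycle genes in the result was not tested. In HP1a WT Tconv the myeloid list was at 5.93 to 6.63 CPM, with 2 of 10 genes at 0, against 8.74 to 13.7 in HP1a WT naive libraries. The erythroid list was at 1.8 to 3.48 CPM, against 37.2 to 97.7. The log2 fold changes in that pair were −0.59 for Suv39h1, −0.75 for Atf7ip and 0.56 for Ehmt2. B cell markers (8 genes) summed to 5 to 6.26 CPM in HP1a WT naive and 5.3 to 19.7 in HP1a WT Tconv libraries. The part of these marker lists was not tested, in that pair or in the others. In bulk RNA, fewer cells that express a gene and less RNA per cell cannot be told apart.

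A list of 42 other genes of the pathway, 40 of them tested, moved in both directions. In Tconv, 9 were higher and 13 lower in HP1a WT, 10 and 10 in HP1a KO, 5 and 3 in HP1g WT, and 9 and 10 in HP1g KO. The replication-coupled factors gave the same count in every pair, 4 of 6 higher and none lower. Among them Uhrf1, which guides maintenance DNA methylation and reads methylated H3K9, rose from 5.76 ± 0.592 to 50.8 ± 23.3 CPM in HP1a WT (SD, n = 3; log2 fold change 3.14, edgeR adjusted p = 0.00013), and Chaf1a, a subunit of the chromatin assembly factor that binds HP1, from 5.03 ± 0.343 to 22.2 ± 5.0 CPM (2.14, adjusted p = 6.01e-05). Of the 10 H3K9 demethylase genes, 1 was higher in each pair, Kdm4d, from 0.144 ± 0.109 to 2.92 ± 0.513 CPM in HP1a WT (4.31, adjusted p = 0.000666), and 5, 4, 0 and 4 were lower in HP1a WT, HP1a KO, HP1g WT and HP1g KO. Kdm7a fell from 158 ± 10.2 to 62.5 ± 9.06 CPM in HP1a WT (−1.33, adjusted p = 4.5e-05).

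Of the partners of SETDB1, HUSH and MORC, Tasor, the scaffold of the HUSH complex to which MPHOSPH8 belongs, fell in HP1a WT from 103 ± 27.9 to 47.8 ± 5.92 CPM (−1.11, edgeR adjusted p = 0.00242) and in HP1a KO by 0.99 on the log2 scale (adjusted p = 0.0014). It was −0.14 and −0.26 in HP1g WT and KO, which did not pass. Daxx, a histone chaperone that works with ATRX, fell in HP1g WT from 154 ± 4.37 to 96.8 ± 8.4 CPM (−0.67, adjusted p = 0.00911). Pias1, a SUMO ligase, fell there from 172 ± 10.2 to 117 ± 9.29 CPM (−0.56, adjusted p = 0.0211). Zfp644, a zinc finger partner of G9a and GLP, fell in HP1a WT from 75.1 ± 3.8 to 36.1 ± 2.82 CPM (−1.06, adjusted p = 6.79e-05). The changes of the 10 genes stayed within 2-fold. Uhrf1, Chaf1a, Kdm4d and Kdm7a were named because they were among the highest or lowest that passed. Their larger size in HP1a WT follows from that choice and is no measure of the 10 genes against the list.

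**Figure D4:**
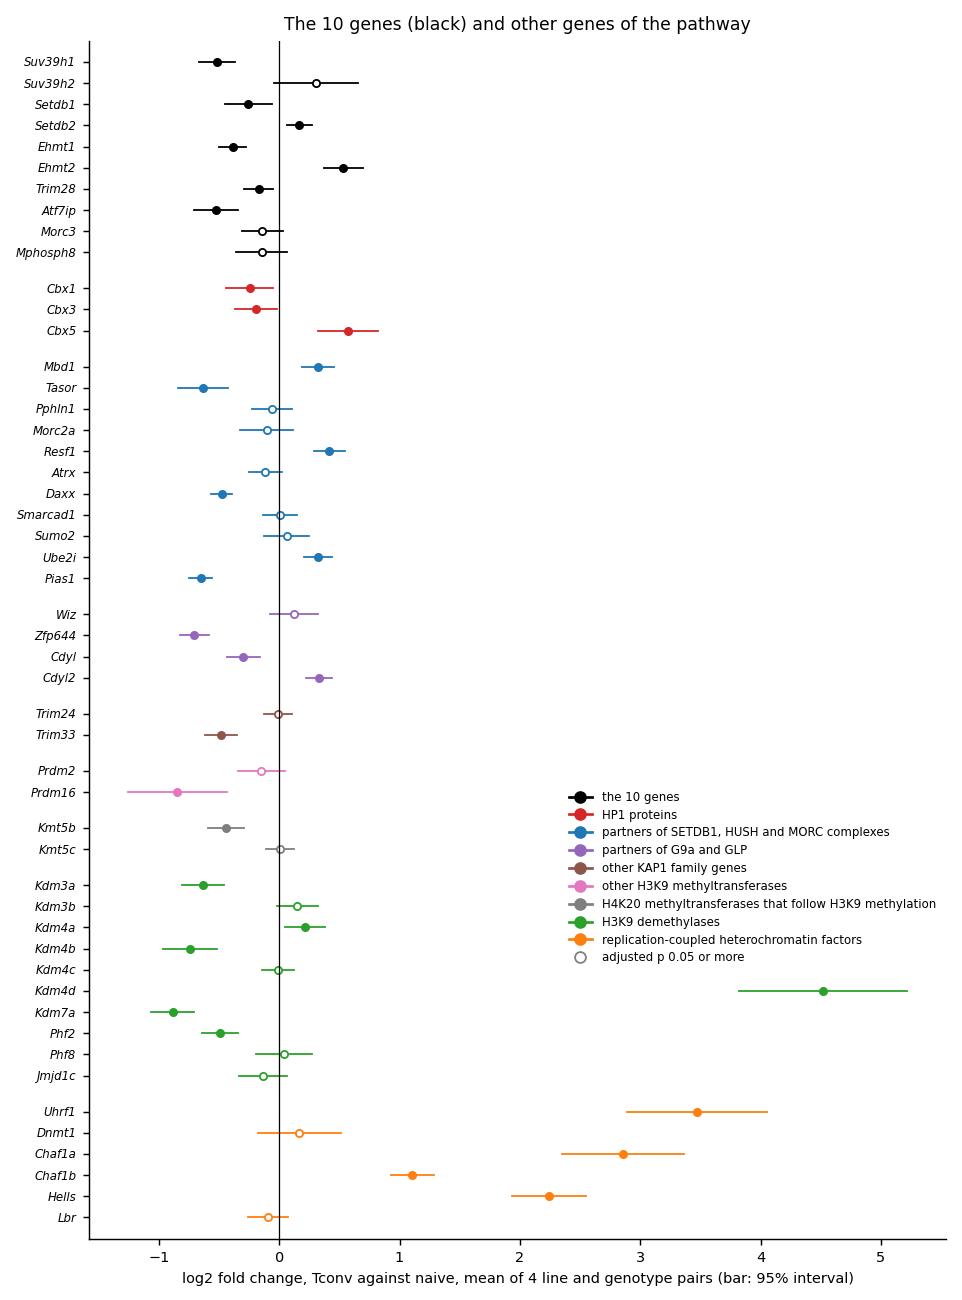
Log2 fold change in Tconv against naive cells, mean of the 4 pairs, with 95% intervals, for the 10 genes (black) and the other 40 tested genes of the pathway grouped by role, filled where they passed. The 10 genes stay between −0.53 and 0.53. Kdm4d (4.52), Uhrf1 (3.47) and Chaf1a (2.86), named by rule as among the highest that passed, lie to the right of them.

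The second question was whether loss of an HP1 protein went with another level of the machinery. In none of the 6 comparisons of KO with WT did a member pass (edgeR quasi-likelihood test, 60 tests of 10 genes), and none passed in DESeq2, where 1.44% of gene tests did. An unadjusted p under 0.05 was reached in 5 of the 60, and in 8.2% of the tests of all genes. Few genes passed in all: 0% in HP1a naive cells, 0.122% in HP1a Tconv, 0.123% in HP1a Tconv with Treg, 0.00669% in HP1g naive cells, 0.0437% in HP1g Tconv and 0% in HP1g Tconv with Treg. With the replicate number as a block in HP1a naive cells, where it was taken to pair the libraries, 27 genes passed instead of 0, and still no member. Where it was not taken so, the block gave 37 genes instead of 19 in HP1a Tconv and 5 instead of 20 with Treg. In HP1g it gave 0 instead of 1 in naive cells, 98 instead of 7 in Tconv and 30 instead of 0 with Treg. HP1g Tconv missed the pairing rule by little (lowest correlation 0.0969, limit 0.1). No member passed with the block in any of these. The log2 fold changes of the members ran from −0.52 to 0.68, and from −0.52 to 0.39 without HP1g WT naive replicate 2 and HP1a WT Tconv with Treg replicate 3. The 95% interval lay within a 2-fold change for 55 of the 60 (57 without those libraries), and within 0.5 on the log2 scale for 34 (45 without them). No member passed without them either, where 0.306% of genes did in HP1g naive cells and 0.935% in HP1a Tconv with Treg. With every library in use, the only deleted gene that passed in these comparisons was Cbx5 in HP1a Tconv. Cbx5 did not pass in HP1a naive cells (10.9 CPM in KO, 22.3 in WT). Cbx3 did not pass in HP1g Tconv with Treg (60.95 CPM in KO, 88.25 in WT). The test thus missed differences in the deleted genes themselves. For HP1a Tconv with Treg, the paper reports many more genes that differ between KO and WT. A p that misses the threshold does not show equal levels.

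Suv39h1 had log2 fold changes of −0.05 to 0.34 in the 6 comparisons, with the widest interval reaching 0.84 (−0.17 to 0.34 without those libraries). In Tconv it was 31.6 ± 1.85 CPM in HP1a WT and 33.5 ± 1.76 in HP1a KO (SD, n = 3 each). Ehmt2 had 0.03 to 0.29, Trim28 −0.14 to 0.20, and Ehmt1 −0.13 to 0.30, with highest values of 0.16, 0.16 and 0.16 without those libraries. In HP1g naive cells, where these 3 genes had their highest values, they were 0.03, 0.09 and 0.12 without WT replicate 2. Setdb1 had −0.01 to 0.37 (to 0.28 without those libraries), Morc3 −0.29 to 0.48 (to 0.26), Setdb2 −0.52 to 0.37 (to 0.18), and Mphosph8 −0.43 to 0.06 (from −0.26). Suv39h2, at its low level, had −0.06 to 0.26 with intervals from −1.06 to 1.17, the widest among the 10.

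Some members reached an unadjusted p under 0.05 or had libraries that did not overlap. Mphosph8 was 28.6 ± 1.74 CPM in HP1a KO and 34.17 ± 1.75 in HP1a WT naive cells (−0.26, edgeR adjusted p = 0.9999), the only member of 10 whose libraries did not overlap there, against 6.17% of all genes. Setdb1 was 0.28 higher on the log2 scale in HP1a KO Tconv (adjusted p = 0.549), and its libraries overlapped. Setdb2 had 37.5 and 42.8 CPM in HP1g KO Tconv with Treg and 57.8, 65.5 and 49.2 in WT (−0.52, adjusted p = 0.296), and 2 of 10 members, Setdb2 and Trim28, did not overlap in that comparison, against 29.4% of all genes. Myeloid markers summed to 217 to 602 CPM in HP1a KO and 17.1 to 40.3 CPM in HP1a WT Tconv with Treg, and their part in the differences of that pair was not tested.

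Atf7ip had the highest mean estimate of the 10 genes in the HP1g line. It had 237, 255 and 275 CPM in HP1g KO naive libraries and 195, 96.6 and 193 in WT (0.68, unadjusted p = 0.0412, edgeR adjusted p = 0.630, and 0.39 with adjusted p = 0.174 without WT replicate 2), and 163, 170 and 189 against 148, 148 and 146 in Tconv (0.26, adjusted p = 0.469). Neither overlapped, as for 2 of 10 members in each of these comparisons against 16.8% and 13.9% of all genes. In Tconv with Treg it had 154 and 197 CPM in KO against 162, 134 and 148 in WT (0.24, adjusted p = 0.619), and the groups overlapped. The mean over the 3 conditions, added after values had been seen, was 0.38 (95% interval 0.12 to 0.63, adjusted p = 0.145, where 1.65% of genes passed), and without HP1g WT naive replicate 2 it was 0.29 (adjusted p = 0.0394, where 1.64% passed). In the HP1a line no member passed in that mean either, where 0.533% of genes did, and the members with the lowest p were Mphosph8 at −0.27 (adjusted p = 0.239) and Morc3 at 0.25 (adjusted p = 0.393), which were −0.17 and 0.18 without WT Tconv with Treg replicate 3. In either line 2 members had an unadjusted p under 0.05, as 13.2% of all gene tests did, and none passed in DESeq2, where 2.1% did.

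**Figure D5:**
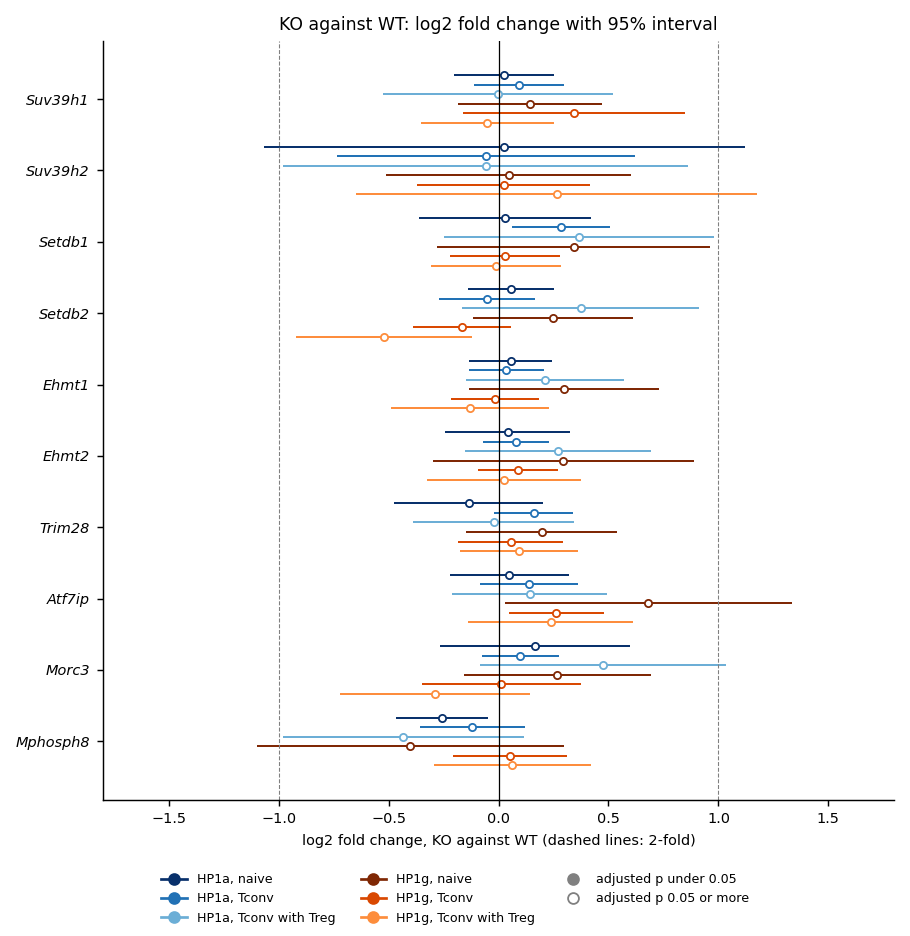
Log2 fold change of each gene in KO against WT with 95% intervals from the edgeR fit, in the 3 conditions of either line (colour), with dashed lines at a 2-fold change. All 60 estimates lie between −0.52 and 0.68 with every library in use, and none passed.

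Among the other pathway genes 1 stood out in the HP1g line. Mbd1, which encodes a methyl-CpG binding protein known as a partner of ATF7IP, had 138.3, 124.6 and 130.2 CPM in HP1g KO Tconv and 64.8, 65.4 and 67.3 in WT, and the groups lay far apart (1.02, SE 0.0779, edgeR adjusted p = 0.0178). With 1 library left out, the adjusted p passed in 1 of 6 fits (0.0209 to 0.370), while the log2 fold change stayed at 0.96 to 1.05. In naive cells it was 77.4 ± 5.6 CPM in KO and 53.9 ± 10.5 in WT (0.54, adjusted p = 0.630). In Tconv with Treg it had 107 and 151 CPM in KO against 61.9, 61.5 and 64.3 in WT (1.04, adjusted p = 0.162). Over the mean of the 3 conditions, Mbd1 was 0.85 higher on the log2 scale (SE 0.0863, adjusted p = 0.000246, passing in 17 of 17 fits without 1 library). In the HP1a line that mean was 0.13 (adjusted p = 0.462). Beside the differences in HP1g Tconv, the 10 cell cycle genes had a median log2 fold change of 0.99 in KO against WT, with 10 of 10 above 0 and none passing, and their part in it was not tested. Trim24, of the KAP1 family, was 0.41 higher in HP1g KO over the 3 conditions (SE 0.0816, adjusted p = 0.0188), where Cbx3 itself fell by 0.66 on the log2 scale (adjusted p = 0.0104).

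The differences between KO and WT in the change from naive cells to Tconv, and in the response to Treg, were tested as interactions. No member passed in the 4 tests (edgeR, 40 tests of members), where 0.00587% and 0.0235% of genes passed for activation in HP1a and HP1g, and 0.145% and 0% for Treg. An unadjusted p under 0.05 was reached by 1 of the 40 and by 6.54% of all gene tests, and DESeq2 passed none of the 40 and 0.531% of all. The estimates ran from −0.40 to 0.53 on the log2 scale, and from −0.40 to 0.29 without the same 2 libraries. The value of 0.53 was that of Mphosph8 for activation in HP1g, which was 0.02 without WT naive replicate 2.

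The third question was whether Tconv recovered with Treg differed from Tconv without them. No member passed in any of the 4 pairs (edgeR), where 7.54% of genes passed in HP1a WT, 0.756% in HP1a KO, 0.0126% in HP1g WT and 0% in HP1g KO. With the replicate number as a block in HP1g WT, where it was taken to pair the libraries, 0 genes passed instead of 2. Of the 40 tests, 5 had an unadjusted p under 0.05, as 13.1% of all gene tests did. DESeq2 passed 1 of the 40, Trim28 in HP1a WT, and 3.43% of all gene tests (8.92% in that pair). In that pair 6 of 10 members had libraries that did not overlap, where 34.8% of all genes did not. Treg markers (8 genes) summed to 549 to 978 CPM in the libraries of Tconv and 660 to 1510 in those with Treg, and their part was not tested.

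Trim28 had 54.5, 58.3 and 52.8 CPM in HP1a WT Tconv and 76.98, 73.6 and 69.3 with Treg (0.45, SE 0.132, edgeR adjusted p = 0.09, DESeq2 adjusted p = 0.0229). Setdb2 had 48.4, 45.1 and 47.7 CPM in Tconv and 36.5, 30.7 and 20.3 with Treg (−0.65, SE 0.219, edgeR adjusted p = 0.133). The last library of the latter, replicate 3, was also low for Setdb1 (23.5 against 42.4 and 43.7 CPM), Morc3 (51.0 against 96.5 and 88.3) and Suv39h1 (27.7 against 44.7 and 41.3) and high for Mphosph8 (73.1 against 41.9 and 48.0). Without it 3 members passed, where 16.5% of genes did: Trim28 at 0.48 (adjusted p = 0.0157), Suv39h1 at 0.47 (adjusted p = 0.0307) and Setdb2 at −0.46 (adjusted p = 0.0397). Without it, the log2 fold change went from −0.52 to −0.29 for Morc3, from 0.56 to 0.27 for Mphosph8 and from −0.23 to −0.0017 for Setdb1.

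In HP1g WT cells the same values were close to each other. Trim28 had 67.9, 61.2 and 67.2 CPM in Tconv and 62.0, 58.8 and 62.4 with Treg (−0.10, edgeR adjusted p = 0.848), Setdb2 52.1, 52.3 and 45.4 against 57.8, 65.5 and 49.2 (0.20, adjusted p = 0.800). The difference between the lines in the response of WT cells to Treg was 0.54 for Trim28 (SE 0.136, edgeR adjusted p = 0.0722, DESeq2 adjusted p = 0.00144) and −0.87 for Setdb2 (SE 0.257, edgeR adjusted p = 0.117). No member passed in edgeR, against 1.76% of all genes (3.4% in DESeq2), and 2 had an unadjusted p under 0.05. Trim28 passed without HP1a WT Tconv with Treg replicate 3 (adjusted p = 0.0205, against 3.94% of all genes). In the difference between the lines in the KO effect under Treg, no member passed in edgeR (2.84% of all genes) or DESeq2 (5.34%), and 2 had an unadjusted p under 0.05, as 18% of all genes had. Suv39h2 had 7.05, 7.77 and 7.58 CPM in HP1g WT Tconv and 10.3, 9.47 and 8.87 with Treg (0.35, adjusted p = 0.722). That was the lowest of its log2 fold changes with Treg over the 4 pairs of line and genotype (0.35 to 0.71), none of which passed. Dclre1c, which shares exon bases with it, had 0.61, 0.10, 0.02 and 0.60 in HP1a WT, HP1a KO, HP1g WT and HP1g KO. None of these passed either. The kit was unstranded, and the part of Dclre1c in the values of Suv39h2 was not tested.

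Genes whose group means followed those of Suv39h1 most closely over the 12 groups, among 9365 genes, were Fgd3 (Pearson r = 0.964), Ash1l (0.959), a histone methyltransferase gene, and Prpf4b (0.958), a kinase gene of the splicing machinery. Over the 35 libraries the same correlations were 0.738, 0.663 and 0.658, where these genes ranked only 228, 587 and 618 among the 9365. The genes closest to Trim28 over the 12 groups were Mnt (0.918), a repressor of the MYC network, Trrap (0.903), a scaffold of acetyltransferase complexes, and Ctdsp2 (0.898), a phosphatase gene. Their correlations over libraries were 0.524, 0.716 and 0.713, at ranks 118, 2 and 3. Among the members, Suv39h1 was closest to Atf7ip (0.835) and Ehmt1 (0.771) and opposite to Ehmt2 (−0.751). These are descriptions over groups that share lines and preparation.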

How the data were processed

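SMART-Seq libraries (10 pg of RNA, unstranded kit) were trimmed, aligned with STAR to GRCm39 and quantified with Salmon by the authors through nf-core/rnaseq. The deposited values are expected counts per gene, not scaled or filtered, and 82.9% were whole. They were rounded. Groups came from the sample titles. Labels do not say whether replicates are separate animals, so p-values measure the spread between libraries. Replicates of a group differed beyond sampling noise.

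The test was edgeR 4.0.16 quasi-likelihood in R 4.3.3 (TMM, filterByExpr, libraries of the compared groups alone, Benjamini-Hochberg over all genes tested, adjusted p under 0.05). Means of pairs or conditions came from 1 fit of the groups concerned. CPM used TMM factors over 35 libraries. The scripts were tested on simulated data. Intervals are 95%.

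Alternatives were DESeq2 1.42.0, RLE factors, no filter, a 2-fold threshold, 1 fit of all libraries, a replicate block, the left-out library included, and each library left out. Equal replicate numbers were taken to pair libraries where every correlation of deviations was above 0.1, as in HP1a KO against WT naive cells (lowest 0.441) and HP1g WT with and without Treg (lowest 0.132), where the numbers come from the titles.

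Members and lists were chosen with earlier results of these data known. Besides members, genes were named by rule: the 3 highest and 3 lowest pathway genes per comparison that passed and averaged 1 CPM or more, and for likeness the 3 closest that averaged 5 CPM or more.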

Additional observations from a re-analysis of the deposited data

Results flagged for a closer look

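For Cdyl2, a chromodomain gene of the G9a and GLP partners, the response of WT cells to Treg differed between the lines by −1.001 on the log2 scale (SE 0.216, edgeR adjusted p = 0.041). Cdyl2 was 48.8 ± 6.27 CPM in HP1a WT Tconv and 21.99 ± 4.27 with Treg (SD, n = 3 each). The difference passed in 3 of 12 fits without 1 library.

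For Mbd1 the effect of KO in Tconv with Treg differed between the lines by −0.96 on the log2 scale, HP1a minus HP1g (SE 0.216, edgeR adjusted p = 0.0437), and passed in 1 of 11 fits without 1 library.

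The library left out of the comparisons, HP1g KO Tconv with Treg replicate 3, held levels above those of all HP1g WT Tconv with Treg libraries for 3 members: Atf7ip at 1361 CPM (WT 130 to 159), Setdb1 at 79.7 CPM (45.5 to 49.0) and Trim28 at 61.1 CPM (57.1 to 60.8). The other 7 members were below the WT range there, such as Suv39h1 at 7.81 CPM (36.2 to 38.5). The share of all genes outside the WT range was not counted, but 72.9% of 12860 genes lay more than 2-fold from the rest of its group. The paper excluded a sample of the HP1g line for abnormal GC content, share of reads in exons and coverage bias along transcripts. These values are therefore no result about the members.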

How the results depend on the processing

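Of the 10 genes' 240 results, 3480 alternative values were computed: 3425 kept their side of the threshold, 199 of them with a change of sign where neither value passed, while 27 lost the call, 28 gained one and 0 reversed one. With a 2-fold threshold 0 members passed in each of the 4 comparisons of Tconv with naive cells and in their mean. Counts of members that passed moved as follows. In Tconv against naive cells, HP1g WT (1 member) gave 0 without a filter, 0 with the replicate block, 3 in 1 fit of all libraries and 0 to 6 without 1 library, and HP1g KO (4) gave 2 in 1 fit of all libraries and 3 to 4 without 1 library. HP1a WT (6) gave 4 to 8, HP1a KO (4) 4 to 6 and the mean of pairs (7) 6 to 8 without 1 library. In Tconv with Treg against Tconv, HP1a WT (0) gave 1 with DESeq2, 2 in 1 fit and 0 to 3 without 1 library. The difference of Treg effects between lines gave 1 with DESeq2, 1 in 1 fit and 0 to 1 without 1 library, that of KO effects 1 in 1 fit, and the HP1g KO mean of 3 conditions 1 without a filter, 1 in 1 fit and 0 to 1 without 1 library. Of the 10 ranks in level, 5 were kept with transcript lengths. Of all genes, 40.3% passed in HP1g WT without naive replicate 2 (6 members). In HP1a WT with Treg, 16.5% did without replicate 3 (3 members) and 8.92% with DESeq2 (1 member). For the difference of Treg effects it was 3.94% without that library and 3.4% with DESeq2 (1 member each). For the HP1g KO mean it was 1.64% without WT naive replicate 2 (1 member). For the other fits listed here this share is not given. The cause of these moves was not tested. The replicate block left 4, 5, 0 and 4 members in Tconv against naive cells of HP1a WT, HP1a KO, HP1g WT and HP1g KO (6, 4, 1 and 4 without it) and 0 in the other comparisons of 2 groups and the interactions. Among all genes, 6491, 6263, 4103 and 6034 passed with the block in those 4 pairs. Without the block 7324, 6408, 4971 and 6538 did. Where equal numbers were not taken to pair libraries, 0 to 6 of 5 or 6 libraries were closest to their own number. It changed no call of a member in the comparisons taken as paired. Low counts and the exon bases shared with Dclre1c limit Suv39h2.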
